A study of Drosophila melanogaster with 6 samples.

Results

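The stretch of chromosome arm 3L that holds Tollo and Toll-6 is 1 of the under-replicated domains of Drosophila larval salivary glands. It comprises 28 windows of 10 kb, from 3L 15200001 to 15480000 on the dm6 assembly, out of 808 different windows at under-replicated domains of the chromosome arms and 2189 in arms and pericentric heterochromatin together. The windows were taken by position, as every listed arm window of this stretch. The stretch itself was chosen by its low ratio of averaged copy number in H3K9R to HWT, the control, so that ratio is given below as a description and is no finding. Genomic DNA came from salivary glands of female wandering third-instar larvae, with 2 biological replicates of 25 glands for each of 3 genotypes. In all 3 genotypes the endogenous replication-dependent histone genes were deleted (ΔHisC) and replaced by a transgenic array, and the larvae carried twi-GAL4 and UAS-2xEYFP, whose fluorescence was used to pick them out. HWT is the control, whose array is wild type. In H3K9R, lysine 9 of H3 was changed to arginine, and in H4K16R the same change was made to lysine 16 of H4. The genes of the variant histone H3.3, and His4r outside the cluster, still encode the unchanged lysines.

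Salivary gland cells grow by endoreplication, in which rounds of DNA synthesis follow each other without division and build polytene chromosomes. Late replicating stretches, the pericentric heterochromatin and a set of intercalary bands along the arms, are not copied in every round and end with fewer copies than the rest of the chromosome. Replication forks enter such a domain from its flanks, and copy number along an under-replicated arm domain typically falls from the flanks to the interior. Tollo (also called Toll-8) and Toll-6 belong to the Toll family, cell surface receptors with leucine-rich repeats outside the cell and a TIR signaling domain inside. In the fly embryo both help to orient the intercalation of epithelial cells. Toll-6 also acts as a neurotrophin receptor in the fly nervous system. DNA copy number, not expression, was measured here.

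Tollo (FBgn0029114) lies on the plus strand at 3L 15235619 to 15242832, in the left part of the domain (the side of lower coordinates). Toll-6 (FBgn0036494) lies on the plus strand at 3L 15336692 to 15344315, close to its middle, and 93.9 kb separate the 2 genes. The annotation places 6 further protein-coding genes in the domain. They are Prx1, a peroxiredoxin, Best3 and Best4, of the bestrophin family of chloride channels, and CG7255, CG33259 and cocoon. There are also 6 genes of non-coding RNA and 2 mobile elements, gypsy5 and opus, which are retrotransposons with long terminal repeats. Protein-coding genes take up 10.2% of the bases, and 18 of the 28 windows hold no base of one.

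Reads are counted only where they align with confidence, so the sequence of the domain bears on the counts. Tollo and Toll-6 are paralogs, but their sequences can be told apart. Of the 100-base sequences, 99.9% of those of Tollo and 99.9% of those of Toll-6 occur once in the assembly. The longest run that the 2 genes share is 16 bases long, far shorter than a read of 100 bases. It is shown in capitals below with 20 bases of each gene on both sides, at chr3L:15237473-15237528 for Tollo and chr3L:15338781-15338836 for Toll-6, plus strand, to show how soon the 2 copies diverge.
Tollo: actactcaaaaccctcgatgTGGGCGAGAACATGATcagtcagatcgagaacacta
Toll-6: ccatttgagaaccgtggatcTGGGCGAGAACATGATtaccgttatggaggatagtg

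The mobile elements are the exception. Of the 100-base sequences inside opus 7.72% occur once in the assembly, with a median of 34 occurrences, and inside gypsy5 10.7% occur once, with a median of 3. The left boundary of each insertion is shown because the windows around them behave differently from the rest (below). Capitals mark the leftmost 40 bases of the element and lower case the 60 bases of 3L next to it, plus strand of dm6. Since opus is annotated on the plus strand, its capitals are the start of the element. The gypsy5 element is annotated on the minus strand, so its capitals are the end of the element, read as the reverse complement. The gypsy5 boundary is at chr3L:15295763-15295862 and the opus boundary at chr3L:15423738-15423837. Each of these 100-base sequences occurs 1 time in the assembly, so a read across the boundary can be placed.
gypsy5: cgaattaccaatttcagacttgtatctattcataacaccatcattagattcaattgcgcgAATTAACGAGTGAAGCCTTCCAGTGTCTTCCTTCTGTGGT
opus: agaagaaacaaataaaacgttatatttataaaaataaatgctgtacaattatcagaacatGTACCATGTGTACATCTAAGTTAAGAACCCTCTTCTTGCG

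Copy number was measured as the reads in each window scaled to the total reads of the library (RPM). The authors deposited the average of both replicates, and the reads of the single libraries were derived from these averages, which are sums of whole read numbers over a pair of library totals. Replicate numbers cannot be given to the derived libraries. Within a genotype the one with more reads is named deeper and the other shallower, and totals ranged from 18681787 to 26685461 reads. Between 251 and 1630 reads fell in a window of the domain in a single library. The deeper and the shallower library of HWT differed at the domain by a median absolute log2 value of 0.06, those of H3K9R by 0.07 and those of H4K16R by 0.05.

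In HWT, copy number fell from both ends of the domain to its interior. It was 54.1 and 52.4 RPM in the deeper and the shallower library at the first window (which holds Prx1) and 55.4 and 53.7 RPM at the last (which holds cocoon). The lowest average of HWT was 22.4 RPM at 3L 15380001 to 15390000, with 23.6 and 21.3 RPM in the single libraries. This window holds no annotated gene and lies in the wide gap between Toll-6 and CG33259. The highest window of a library was 2.43 times its lowest in the deeper HWT library and 2.71 times in the shallower. In both, the profile was a valley with its floor to the right of Toll-6 and a longer slope on the Tollo side.

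H3K9R libraries traced the same valley at a lower level. The first window had 40.3 and 43.9 RPM in H3K9R, the last had 51.7 and 50.1 RPM, and the lowest average, 13.8 RPM, was at 3L 15370001 to 15380000 with 14.1 and 13.4 RPM. The highest window of a library was 3.67 and 3.73 times its lowest, a deeper valley than in either HWT library. H4K16R libraries ran close to HWT. Their first window had 58.6 and 58.5 RPM, their last 61.1 and 59.4 RPM, and their lowest average, 24.5 RPM, lay in the same window as that of H3K9R. There the single H4K16R libraries had 23.8 and 25.2 RPM, and the second Toll-6 window was as low, at 24.5 RPM on average. The highest window of a library was 2.57 and 2.40 times its lowest, close to the HWT values.

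**Figure D1:**
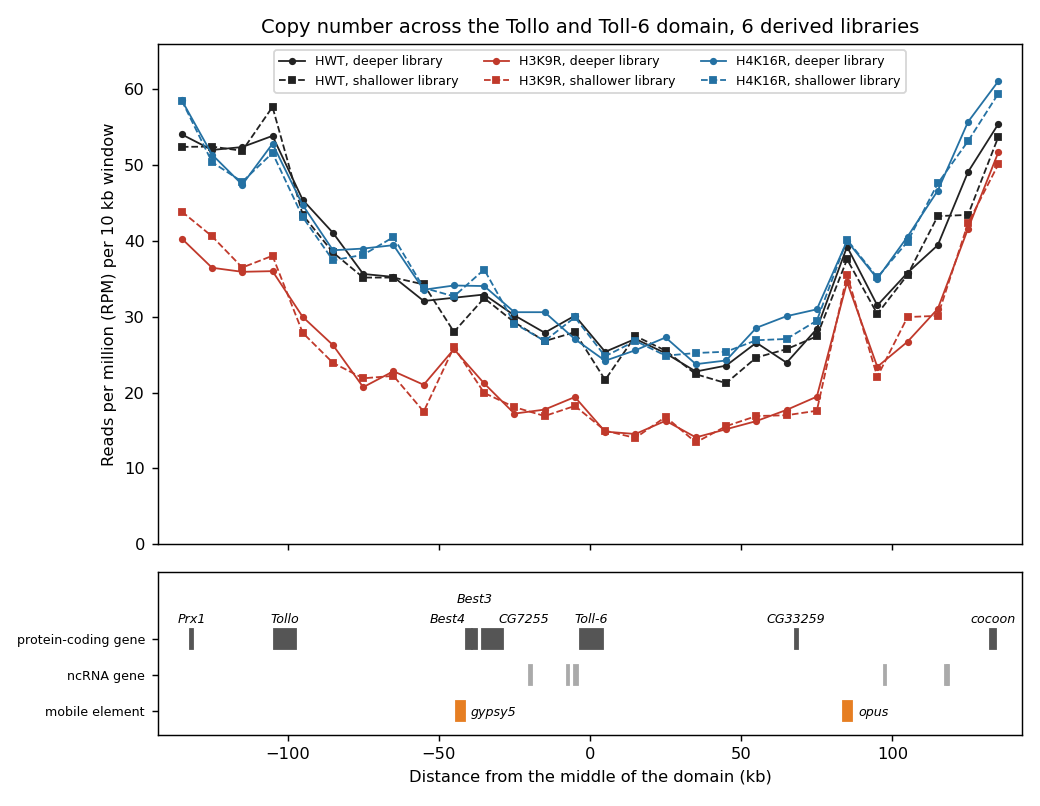
RPM per 10 kb window (upper panel, linear axis from 0) in the deeper (solid line) and the shallower (dashed line) library of HWT, H3K9R and H4K16R, against the distance in kb from the middle of the domain, above a map of its genes and mobile elements. All libraries form a valley. The lowest window lies between Toll-6 and CG33259 in each library but the shallower one of H4K16R, where it is the second Toll-6 window, with the lowest averages at 22.4 RPM in HWT and 13.8 RPM in H3K9R.

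Tollo lay on the left slope of this valley and Toll-6 near its floor. The first window of Tollo, 3L 15230001 to 15240000, had 53.9 and 57.7 RPM in HWT, 36.0 and 38.1 RPM in H3K9R and 52.8 and 51.6 RPM in H4K16R. The second, 3L 15240001 to 15250000, had 45.4 and 43.4 RPM in HWT, 30.0 and 27.9 RPM in H3K9R and 44.7 and 43.2 RPM in H4K16R. Both H3K9R libraries were below both HWT libraries in each window, at 0.664-fold and 0.651-fold on average. The H4K16R libraries were both below HWT in the first window, at 0.936-fold, and overlapped with HWT in the second. The first Tollo window has the highest GC content of the domain, 46.2%, and stood above the mean of its neighbors by a log2 value of 0.21 in HWT, 0.19 in H3K9R and 0.19 in H4K16R.

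The Toll-6 windows held fewer copies. The first, 3L 15330001 to 15340000, had 30.2 and 27.98 RPM in HWT, 19.4 and 18.3 RPM in H3K9R and 27.1 and 29.9 RPM in H4K16R. The second, 3L 15340001 to 15350000, had 25.4 and 21.7 RPM in HWT, 14.86 and 14.99 RPM in H3K9R and 24.2 and 24.8 RPM in H4K16R. H3K9R was again below HWT in both libraries, at 0.648-fold and 0.634-fold. H4K16R overlapped with HWT in both windows. The receptors thus had nearly the same ratio of H3K9R to HWT although Tollo had a mean of 50.1 RPM over its windows in HWT and Toll-6 a mean of 26.3 RPM. Of the other members of the Toll family (Tl, 18w, Toll-3, Toll-4, Toll-5, Toll-7 and Toll-9), 7 of 7 overlapped no listed window of either list, so their copy number is not analysed here.

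Across the whole domain both H3K9R libraries were below both HWT libraries in 28 of 28 windows, beside 70.8% of all arm windows. The ratio of averages ranged from 0.524 to 0.933, with a median of 0.658, or -0.60 on the log2 scale. Single libraries set against each other, in 4 pairings, gave medians from -0.62 to -0.54. In 16 windows H3K9R was at least 1.5-fold lower, beside 9.03% of arm windows, and 11 of these lay among the 14 windows of the centre. RPM is a share of a library, and the listed windows took up 8.96% and 8.86% of reads in H3K9R and 6.18% and 6.17% in HWT. The arm windows highest in HWT (10%) had a median H3K9R/HWT ratio of 0.908. The counts of windows were not rescaled for this shift, and its part in them was not tested. With limma on log2(RPM + 1), fitted to all windows of both lists with Benjamini-Hochberg adjustment, 22 of the 28 windows were lower at an adjusted p cutoff of 0.001. By the same rule 7.17% of all windows and 19.3% of arm windows were lower. These counts describe the contrast by which the domain was picked and carry no further weight. Without the deeper H3K9R library 10 windows passed, without the shallower 13, without the deeper HWT library 14 and without the shallower 15.

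The lowest ratio was at 3L 15350001 to 15360000, just right of Toll-6 and with no annotated gene. This window had 27.1 and 27.5 RPM in HWT, 14.55 and 14.02 RPM in H3K9R, and 25.6 and 26.8 RPM in H4K16R. Here the HWT libraries stood above the mean of the neighboring windows by a log2 value of 0.16 on average, while those of H3K9R stood below it (-0.14). The highest ratio was at the last window, at 0.933-fold, with a log2 value of -0.10. It was 1 of 6 windows not called by limma. The others were the first window, the windows of gypsy5 and opus, and those starting at 15440001 and 15460001.

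The domain was divided by position into a left edge of 7 windows, a centre of 14 windows (3L 15270001 to 15410000) and a right edge of 7 windows. In HWT the median of the centre was 27.5 RPM in the deeper and 27.1 RPM in the shallower library, against 52.0 and 51.9 RPM at the left edge and 39.3 and 37.6 RPM at the right edge. In H3K9R the centre had 17.5 and 17.0 RPM, the left edge 35.9 and 36.5 RPM and the right edge 31.1 and 30.1 RPM. The difference of the centre from both edges together was -0.65 on the log2 scale in HWT and -0.92 in H3K9R. Single HWT libraries gave -0.65 and -0.68 and single H3K9R libraries -0.91 and -0.95, with no overlap. The domain was chosen by values of these genotypes, so this is a description. Without the windows of gypsy5 and opus, left out after seeing the data, the averages were closer, at -0.70 in HWT and -0.82 in H3K9R. The difference in the ratio of H3K9R to HWT was -0.21, with or without those windows. For this ratio, the pairings of single libraries gave from -0.28 to -0.12 over all windows.

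The 2 edges were not alike in H3K9R. The median ratio of H3K9R to HWT was 0.664 at the left edge, 0.637 in the centre and 0.795 at the right edge. The right edge includes the opus window, at 0.913, and its other windows ranged from 0.664 to 0.933. The centre includes the gypsy5 window, at 0.855. These medians were not taken without the windows of the elements. On the left, the ratio was already 0.791 at the first listed window and 0.602 at 3L 15260001 to 15270000. On the right, it rose to 0.907 and 0.933 in the last windows. The left edge exceeded the right edge by a log2 value of 0.41 and 0.47 in the HWT libraries and by 0.21 and 0.28 in those of H3K9R. In the H4K16R libraries the left edge exceeded the right by 0.23 and 0.25. Both mutants are set against the same HWT libraries in these ratios. Windows beyond the first and the last are not analysed here, so the outer limits of the valley in H3K9R are not known.

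**Figure D2:**
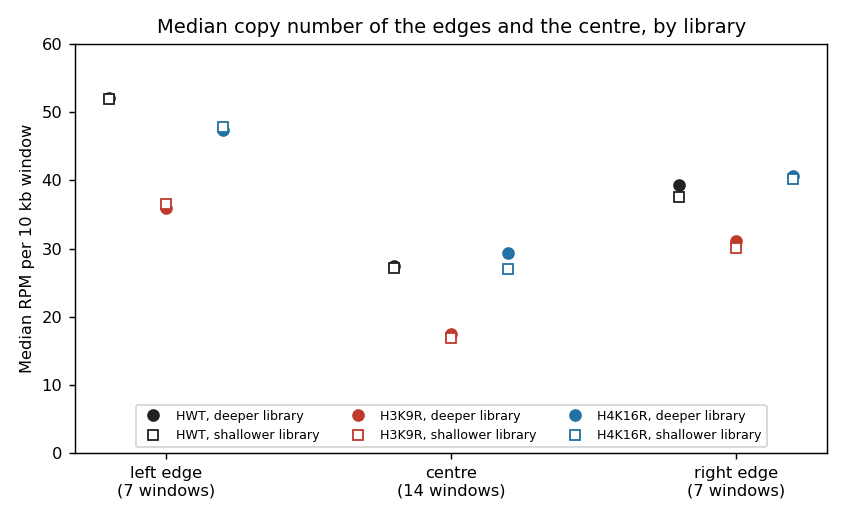
Median RPM per 10 kb window (linear axis from 0) at the left edge (7 windows), the centre (14) and the right edge (7) of the domain, for the deeper (filled circle) and the shallower (open square) library of each genotype. The H3K9R libraries are below the others in each part, with 17.5 and 17.0 RPM in the centre against 27.5 and 27.1 RPM in HWT.

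H4K16R values were not used to choose the domain, but the HWT values were, so the comparison of H4K16R with HWT shares its control with that choice and is not independent of it. The median ratio was 1.08, or 0.11 on the log2 scale, and the pairings of single libraries gave from 0.04 to 0.13. The median window had 34.6 and 35.7 RPM in the H4K16R libraries, and 32.7 and 33.4 RPM in those of HWT. With 2 libraries against 2, the exact two-sided permutation test of these medians gave p = 0.33, the smallest p it allows. With limma 0 of the 28 windows differed at an adjusted p cutoff of 0.001, and 0 at 0.05. By these rules 1.42% and 14.6% of all windows, and 0.124% and 4.58% of arm windows, differed. At an unadjusted p under 0.05, H4K16R was higher in 6 of the 28 windows and lower in 0, while 21.9% of all windows and 10.6% of arm windows were higher and 6.84% and 4.21% were lower. The share of higher windows in the domain was near that of all windows and above that of arm windows, a difference that was not tested. The standard error of a window's log2 difference ranged from 0.06 to 0.09, so that a change of a few percent was not detectable in a single window.

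The small differences of H4K16R were unevenly placed. In 16 windows each H4K16R library exceeded both of HWT, in 4 each was below both, and in 8 the libraries overlapped, while 31.1% of arm windows were above and 19.6% below. The windows above included 7 of 7 at the right edge and, going inward, the last 11 windows in a row, from 3L 15370001 on. The windows below were 3 of the left edge, among them the first window of Tollo, and the one right of Toll-6 that starts at 15350001. The highest ratio of H4K16R to HWT was at the window that starts at 3L 15460001, with 55.7 and 53.2 RPM in H4K16R and 49.1 and 43.4 RPM in HWT. The ratio was 1.18-fold (limma, adjusted p = 0.0834). The lowest was at 3L 15220001 to 15230000, where HWT had 52.4 and 51.9 RPM and H4K16R had 47.4 and 47.8 RPM, or 0.913-fold (limma, adjusted p = 0.198).

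The right edge stood below the left by a log2 value of 0.24 on average in H4K16R and 0.44 in HWT, with no overlap of the libraries and an exact two-sided permutation p of 0.33, again the smallest possible. This split by side was chosen after the values had been seen. The depth of the valley did not separate these genotypes. The centre differed from the edges by -0.64 and -0.75 in the H4K16R libraries and by -0.65 and -0.68 in those of HWT (exact two-sided permutation p = 1).

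**Figure D3:**
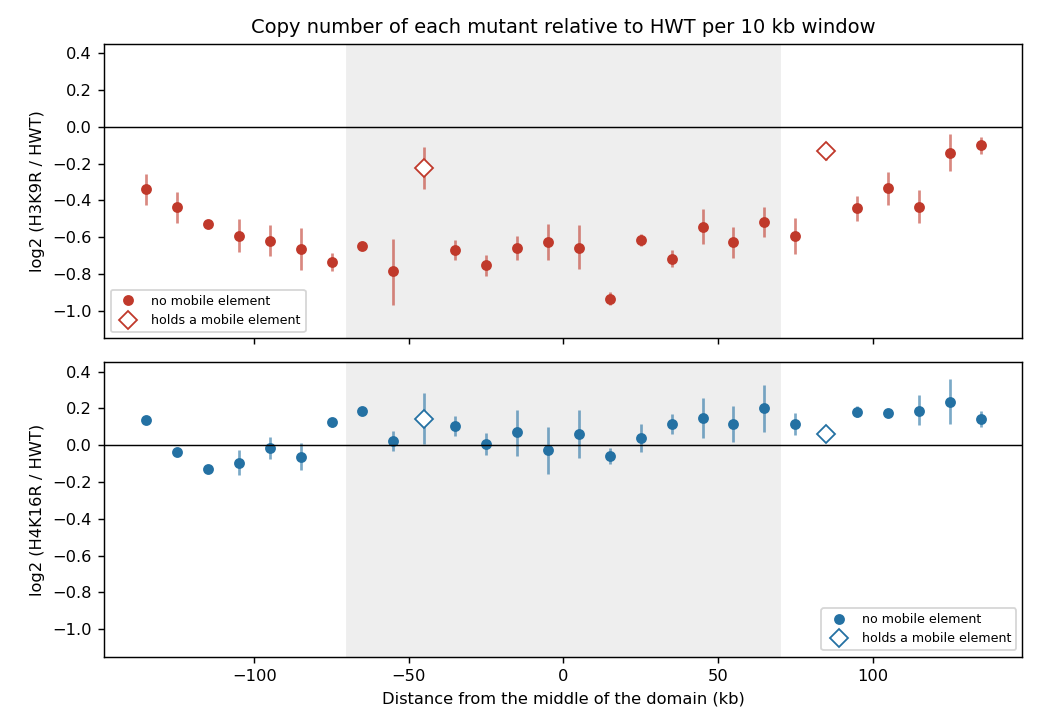
Log2 ratio of the averaged RPM of H3K9R (upper panel) and H4K16R (lower panel) to HWT per 10 kb window, against the distance in kb from the middle of the domain. Lines span the 4 pairings of single libraries, grey marks the centre of 14 windows and open diamonds the windows of gypsy5 and opus. H3K9R is below 0 in 28 of 28 windows, from -0.93 to -0.10, and H4K16R lies between -0.13 and 0.23.

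The windows with a mobile element broke the profile of H3K9R. The opus window, 3L 15420001 to 15430000, had 39.3 and 37.6 RPM in HWT, 34.6 and 35.5 RPM in H3K9R and 40.02 and 40.18 RPM in H4K16R. It stood above the mean of its 2 neighbors by a log2 value of 0.39 in HWT, 0.77 in H3K9R and 0.30 in H4K16R. The gypsy5 window, 3L 15290001 to 15300000, had 32.52 and 28.02 RPM in HWT, 25.7 and 26.0 RPM in H3K9R and 34.1 and 32.7 RPM in H4K16R. It stood above its neighbors by 0.38 in H3K9R, and differed from them by -0.12 in HWT and -0.04 in H4K16R. In both windows each H3K9R library exceeded both HWT libraries in this difference. The excess of H3K9R over HWT was 0.39 for opus and 0.50 for gypsy5. The 20 windows of the domain with no element in them or beside them ranged from -0.30 to 0.21, with a median of 0.01.

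The share of 100-base sequences found once in the genome was 74.7% in the opus window and 75.7% in the gypsy5 window, and 100% in 25 of the 28 windows. Other arm windows with an element mostly went in the same direction, with a smaller median. In 24 of them, with at least 1000 bases of mobile element and fewer in the neighbors, the median excess of H3K9R over HWT was 0.15. It ranged from -0.09 to 0.71, with quartiles of 0.03 and 0.27, and was above 0 in 20. In 383 arm windows with no element in them or beside them, the median was -0.01, and it was above 0 in 181. Their quartiles were -0.07 and 0.05, but they ranged from -0.69 to 0.93, past the values of the opus and gypsy5 windows. An excess of this size was thus not confined to windows with an element. The median excess of H4K16R over HWT was -0.0030 in the 24 windows and -0.0036 in the 383. This comparison was chosen after the values had been seen and is a description, with no test. Whether the flies carry these insertions at the reference positions, and the part of reads from other copies of the elements, was not tested.

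**Figure D4:**
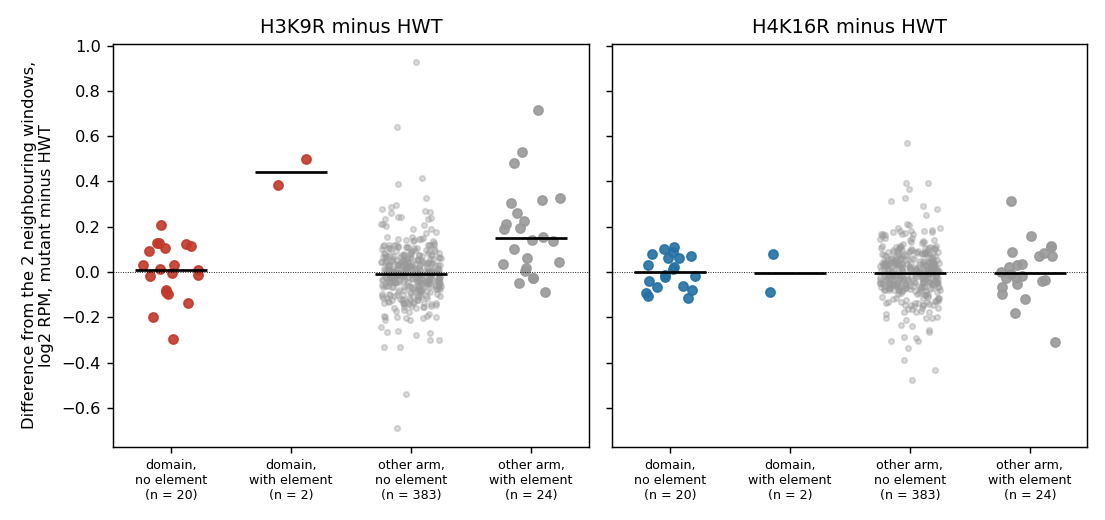
Difference of a window from the mean of its 2 neighbors on the log2 scale of RPM, mutant minus HWT, for H3K9R (left) and H4K16R (right), in windows of the domain and in other arm windows, without and with a mobile element. Points are windows and bars are medians. The 2 domain windows with an element lie at 0.39 and 0.50 in H3K9R, above the 20 without, which reach 0.21. Other arm windows without an element reach 0.93.

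Against the other 104 arm windows of 3L, the domain had a slightly lower copy number in HWT, with a median of 32.9 RPM against 35.5 RPM, and a lower one in H3K9R, with 21.9 RPM against 28.3 RPM. The median log2 ratio of H3K9R to HWT was -0.31 in the other windows, where 89 of 104 were lower in H3K9R and 9 were at least 1.5-fold lower. The domain lay 0.29 below them on the log2 scale, and between 0.22 and 0.36 below in pairings of single libraries. The 67 other windows within the range of RPM that the domain had in HWT (windows picked out after seeing the data) had a median of -0.34. The difference of the domain from them was -0.27. Because the domain was chosen by its low ratio, these differences in H3K9R are a description. The part of the HWT level in them was not tested. The median GC content was 39.3% in the domain (quartiles 38.9% and 40.6%) and 41.5% in the other 3L windows (quartiles 38.6% and 43.7%), and the part of this difference in the ratios was not tested.

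In H4K16R, the domain minus the other 3L windows was 0.10 in the ratio to HWT. In single libraries the level of the domain relative to the other windows was -0.07 and 0.00 in H4K16R and -0.16 and -0.05 in HWT. These overlap, and the exact two-sided permutation test gave p = 0.67.

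**Figure D5:**
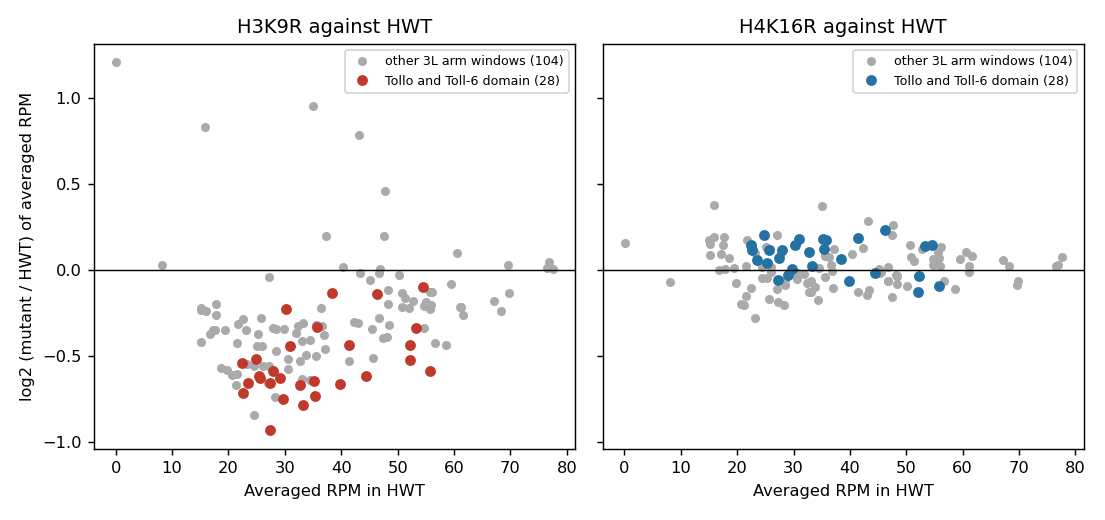
Log2 ratio of the averaged RPM of H3K9R (left) and H4K16R (right) to HWT against the averaged RPM in HWT, for the 28 windows of the domain (colored) and the 104 other arm windows of 3L (grey). In H3K9R the domain has a median of -0.60 against -0.31, and in H4K16R a median of 0.11 against 0.01.

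The next lowest stretches of 3L in H3K9R were 18180001 to 18440000, with the cell death genes hid, grim, rpr and skl, at a median log2 ratio of -0.53 over 26 windows, and 4870001 to 5090000, with Con, which encodes an adhesion protein (Connectin), at -0.39 over 22 windows. The stretch at 13550001 to 13810000, with bru3, followed at -0.31. Their ratios of H4K16R to HWT were -0.07, -0.01 and 0.02. A centre lower than the edges in the ratio of H3K9R to HWT (divided as the domain was) was found in 30 of 36 arm stretches of at least 5 windows, the domain included. In HWT itself it was found in 33 of 36. The stretches are domains called under-replicated from the read depth of HWT, so the count in HWT is tied to their choice and is a description.

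Among all arm stretches of at least 5 windows, the one most like the domain over the 6 libraries was 3R 16670001 to 16960000, with the homeotic genes Ubx, abd-A and Abd-B. Likeness was measured as the Euclidean distance of the median log2 RPM of the libraries, each relative to HWT, and was 0.12. This stretch had a median log2 ratio of -0.47 in H3K9R and 0.13 in H4K16R over 29 windows. The next were 2L 15290001 to 15720000, with the zinc finger genes esg, wor and sna, at a distance of 0.13, and 2L 14720001 to 14950000, with the protamine genes ProtA and ProtB, at 0.21. Their median log2 ratios in H3K9R were -0.52 and -0.45. The H3K9R and H4K16R libraries entered the distance. Ratios near those of the domain thus follow from how these stretches were picked and are a description. This distance leaves out the level and the shape of a stretch in HWT. In the order named, the stretches had medians of 37.4, 56.8 and 23.5 RPM in HWT, and the domain 32.9 RPM. The centre minus the edges in HWT was -0.73, 0.04 and -0.75, against -0.65 in the domain, so the stretch with esg had no such valley.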

How the data were processed

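Per the labels and the study's methods, the authors trimmed paired 100 bp reads with Trimmomatic 0.36, aligned them to dm6 with Bowtie2 2.3.2, kept a MAPQ above 10 with SAMtools 1.6 and counted reads in 10 kb windows with BEDTools. The deposited values are RPM averaged over both replicates of a genotype, at windows of under-replicated domains that CNVnator called in HWT. Columns of single samples not used number 0. RPM is a share of a library, so it is relative, not absolute, copy number. In the tables, 6 of 2195 listed windows are repeats and were counted once.

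Every average is a sum of whole reads over a pair of library totals. The pair was searched for in each genotype and gave whole reads for 100% of the averages, where an average counted as matched within 0.02 after multiplication by the common denominator of both totals. The search was tested on simulated data. Log2 ratios used averages without a pseudocount, and medians were taken over windows. Linear models of limma 3.58.1 (lmFit, eBayes) took the 6 derived libraries as log2(RPM + 1), in 2177 windows with a read. On simulated libraries of H4K16R against HWT over 2176 windows it recovered 158 of 200 windows changed 1.5-fold, with 0 false calls. The changed windows had at least 5 RPM in HWT. Each window was given the same extra spread, 0.039 on the natural log scale, and no shift in level between libraries was simulated. The count of false calls therefore gives no error rate for the real libraries. Smaller changes, such as those of H4K16R in the domain, were not simulated. Annotation came from Ensembl release 115, and 100-base sequences were counted on both strands of RefSeq's Release 6 assembly (dm6), whose chromosome ends match the files wherever a listed window reaches one.

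Windows named are the first, the last, those of Tollo and Toll-6, the lowest of each genotype and the extreme ratios. The stretches named are the 3 next lowest of 3L and the 3 most like the domain. The windows with a mobile element, and those that limma did not call, were named after their values were seen. The members, lists and tests were chosen with earlier results of these data known. Alternatives were the pseudocount, a minimum of 5 RPM, the mean, the scaling, other limits of the centre, other comparison windows, other cutoffs and fits, and leaving out each library. Nothing states more than that the replicates are biological, and p-values measure the spread between these libraries.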

Additional observations from a re-analysis of the deposited data

How the results depend on the processing

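The direction of the domain's H3K9R/HWT ratio, of the lower centre and of the difference from other 3L windows was the same under the alternatives run. The domain was chosen by its low H3K9R/HWT ratio. The constant direction of that ratio, and of its difference from other windows, is therefore tied to the choice and is a description. The domain's median log2 H3K9R/HWT ratio of -0.60 became -0.58 with a pseudocount of 1 RPM, -0.54 with the mean over windows and -0.46 when each genotype was scaled to those arm windows that were highest in HWT (10%), which had a median H3K9R/HWT ratio of 0.908. Leaving out 1 library each gave -0.62 to -0.57 for this ratio and 0.066 to 0.12 for H4K16R/HWT. With a centre of 8 windows and edges of 4, the centre minus the edges was -0.93 in HWT, -1.16 in H3K9R, -0.92 in H4K16R and -0.28 in H3K9R/HWT. With a pseudocount of 1 RPM it was -0.63 in HWT and -0.88 in H3K9R, with the mean -0.63 and -0.83, and without the windows of gypsy5 and opus, an alternative chosen after seeing the data, -0.70 and -0.82. Leaving out 1 library each gave -0.68 to -0.65 in HWT, -0.95 to -0.91 in H3K9R and -0.23 to -0.15 in H3K9R/HWT. Against all other arm windows, the domain's H3K9R/HWT difference was -0.39 in place of -0.29. Of the 28 windows, 10 to 20 were called in H3K9R when 1 library was left out, in place of 22, where a lone library is assumed to vary like the others. In H4K16R, 0 were called under every alternative run. Over all windows, the 31 calls of H4K16R became 318 at a cutoff of 0.05, and 0 with log2(RPM + 0.1), with only the 2 genotypes in the fit, or without any 1 library. No paired analysis was possible because the deposited averages carry no replicate numbers. The cause of these shifts was not tested. With 2 libraries per genotype, the exact permutation test cannot reach 0.05, and in a single window only differences well above its standard error can be detected.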
